A study of Mus musculus with 9 samples.

Results

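The 10 genes described here carry insulin and insulin-like growth factor (IGF) signalling: the receptors Insr, Igf1r and Igf2r, the receptor adaptors Irs1 and Irs2, the IGF binding proteins Igfbp3 and Igfbp4, the transcription factors Foxo1 and Foxo3, and Tsc22d3, a transcript reported to be switched on by FOXO factors and by the glucocorticoid receptor. They were taken as a list of symbols and looked up by gene identifier in the deposited tables. All 10 were found among the 21959 genes listed, and all 10 were among the 11562 genes with enough counts to be tested. Insulin and IGFs bind receptor tyrosine kinases, which phosphorylate IRS adaptors and so activate PI3-kinase and AKT. AKT phosphorylates FOXO factors and keeps them out of the nucleus, and in liver this lowers the expression of gluconeogenic genes. IGF binding proteins hold IGFs outside the cell and set how much of them reaches the receptors.

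RNA was sequenced in bulk from 9 libraries of AML12, an immortalised mouse hepatocyte line derived from a mouse with a transforming growth factor alpha transgene, in 3 groups of 3. OCY-EV+ANTA cells were given vesicles shed by aged osteocytes, at 2 µg/ml, after these had been mixed for 30 min with an antagomir (an oligonucleotide made to block a microRNA by pairing with it) directed at miR-483-5p. OCY-EV+ANTA-NC cells were given the same dose of such vesicles, mixed for 30 min with a control antagomir. Veh cells were given phosphate-buffered saline. Free fatty acids were present in all 3 groups, so each comparison is between fat-loaded cells. No group had vesicles without an antagomir or either antagomir without vesicles, so OCY-EV+ANTA-NC against Veh joins the effects of vesicles and control antagomir. After mixing, the labels give ultracentrifugation for some entries and ultrafiltration for others. Separate cultures are not stated for the 3 libraries of a group, so p-values reflect the spread between libraries alone and that spread may be technical. Each pair of comparisons shares the libraries of a group, so their results are set side by side and not treated as independent.

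Total counts ran from 17298814 to 21737643 per library. Of the 8 hepatocyte markers, Hnf4a lay between 49.0 and 66.1 CPM (counts scaled to a common library total, here with TMM factors) while Cyp2e1 had at most 1 count, and Krt19, a bile duct cytokeratin, reached 2324 to 2866 CPM. Summed CPM of the 8 hepatocyte markers was 3689 to 3895 in OCY-EV+ANTA, 3487 to 3588 in OCY-EV+ANTA-NC and 3695 to 3716 in Veh. Most of that sum was the keratins Krt8 (1742 to 1955 CPM) and Krt18 (1565 to 1746). Apob had 91.9 to 131 CPM, Alb 1.7 to 7.2, Apoa1 2.4 to 6.0 and Ttr 0.59 to 2.3. Summed CPM of the 3 bile duct markers was 3757 to 4076 in OCY-EV+ANTA, 3459 to 3605 in OCY-EV+ANTA-NC and 3744 to 3821 in Veh. Between OCY-EV+ANTA and OCY-EV+ANTA-NC, 2 of the 7 tested hepatocyte markers were called higher (Krt8, Krt18) and 3 lower (Alb, Apoa1, Ttr). Of 3 bile duct markers, 1 was called higher (Krt19). Of all tested genes, 7.59% were called higher and 7.09% lower, at an adjusted p under 0.05 in the test described below. The part of these markers in the results below was not tested. In bulk RNA, fewer cells of a type and less RNA per cell cannot be told apart. The osteocyte markers Sost and Dmp1 had 0 counts in every library, so levels up to 0.138 to 0.173 CPM, depending on the library, would go undetected (limit of 3 counts, counting error only).

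The microRNA at which the antagomir was directed is shown first, because its seed defines the sites searched for below. The mature mouse miR-483-5p of RefSeq lies in GRCm38.p6 at chr7:142654968-142654989 on the minus strand, inside the Igf2 gene. The capitals mark the seed, bases 2 to 8:
mmu-miR-483-5p: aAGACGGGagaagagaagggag
The longest annotated 3′ UTR of each gene was searched for CCCGTCT, the 7 letters complementary to this seed. Among the 10 genes 1 match was found, in Foxo1 (GRCm38, chr3:52352021-52352027, plus strand), at position 5040 of a UTR of 6240 bases. Capitals mark the match:
Foxo1 site: gcgtgtgtcccCCCGTCTggtgagctttc
Of 11457 tested genes with a 3′ UTR, 3.27% held such a match. The shorter CCGTCT, which lies within the 7 letters, was found in 5 of the 10 genes (Foxo1, Igf1r, Igf2r, Irs1 and Irs2) and in 11.6% of all. A longer UTR offers more places for a match, and neither share of all genes was matched for UTR length. The UTRs of these 5 genes ran from 1304 bases (Igf2r) to 7267 (Igf1r), and those without a match from 1340 (Tsc22d3) to 4747 (Insr). These shares are therefore no measure of an excess. A match is a description of the sequence and not a shown target site.

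Promoter windows of RefSeq (GRCm38.p6, 250 bases before to 50 after the start) were matched for 9 of the 10 genes, not for Insr. They were searched on both strands for the FOXO core GTAAACA and for CAAAACA, the core of insulin response sequences. GTAAACA was in none of the 9 genes' windows and in 3.65% of all 32851 windows. CAAAACA, which shares letters with the first motif but does not contain it, was in the windows of Irs1 and Irs2, and in 6.28% of all windows. In Irs1 the matches began 111 and 32 bases before the start, and in Irs2 the match began 37 bases before it. These windows are printed because they hold every match found among the 9 genes, in a pair of adaptors with very unequal levels. Capitals mark CAAAACA or its complement TGTTTTG:
Irs1 promoter (chr1:82291390-82291689, minus strand): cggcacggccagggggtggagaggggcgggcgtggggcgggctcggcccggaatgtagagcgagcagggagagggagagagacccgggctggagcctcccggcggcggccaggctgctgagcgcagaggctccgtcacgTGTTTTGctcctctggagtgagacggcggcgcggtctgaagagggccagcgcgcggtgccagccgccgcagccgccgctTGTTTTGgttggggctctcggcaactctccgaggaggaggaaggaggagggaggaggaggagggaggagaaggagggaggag
Irs2 promoter (chr8:11008880-11009179, minus strand): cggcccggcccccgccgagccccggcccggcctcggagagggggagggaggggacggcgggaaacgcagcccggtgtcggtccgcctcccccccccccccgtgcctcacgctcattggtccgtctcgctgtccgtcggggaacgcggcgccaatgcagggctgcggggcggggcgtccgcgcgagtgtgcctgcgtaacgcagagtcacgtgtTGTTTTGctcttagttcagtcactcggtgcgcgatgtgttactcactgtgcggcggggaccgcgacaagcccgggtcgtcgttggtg
No match says only that these letters are not in the window.

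Set side by side per length, as FPKM (counts scaled by transcript length and library total), the 10 genes covered a wide range. In Veh cells the mean level fell in the order Igfbp4 (46.7 ± 1.2 FPKM, SD, n = 3), Tsc22d3 (36.4 ± 3.8), Irs2 (22.8 ± 1.5), Foxo3 (21.4 ± 0.55), Igfbp3 (13.6 ± 0.62), Igf1r (11.2 ± 0.25), Insr (10.3 ± 0.12), Foxo1 (4.98 ± 0.34), Igf2r (2.73 ± 0.11) and Irs1 (0.451 ± 0.040). Irs2 and Foxo3 overlapped in Veh, and all other neighbours in this order were apart there. Igf1r and Insr were apart in Veh but overlapped in OCY-EV+ANTA and in OCY-EV+ANTA-NC. At the top the order differed between groups. In OCY-EV+ANTA, Tsc22d3 at 42.0 ± 1.5 FPKM lay above Igfbp4 at 39.1 ± 0.17 FPKM in every library, whereas in OCY-EV+ANTA-NC Tsc22d3 at 35.7 ± 1.9 FPKM lay below Igfbp4 at 45.2 ± 2.2 FPKM in every library (SD, n = 3 each). The adaptors formed a very unequal pair: the FPKM of Irs2 was 81.8 ± 25 times that of Irs1 in OCY-EV+ANTA, 54.3 ± 8.7 times in OCY-EV+ANTA-NC and 50.7 ± 2.3 times in Veh (SD, n = 3). Foxo3 was the more abundant FOXO factor, at 4.28 ± 0.076 times the FPKM of Foxo1 in OCY-EV+ANTA, 4.16 ± 0.13 times in OCY-EV+ANTA-NC and 4.31 ± 0.26 times in Veh (SD, n = 3).

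**Figure D1:**
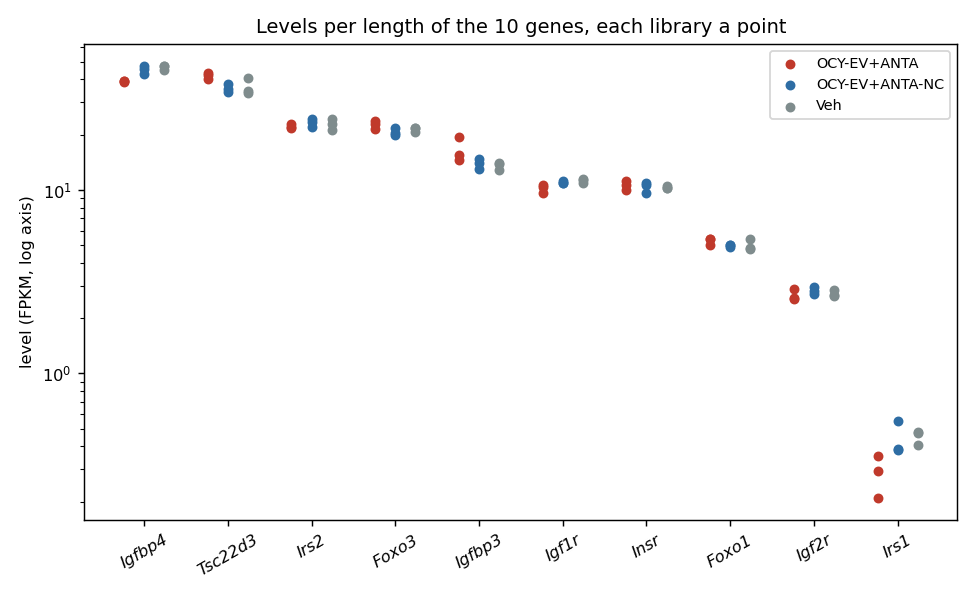
Level per length (FPKM, log axis) of the 10 genes in each of the 9 libraries, 1 point per library, with OCY-EV+ANTA left, OCY-EV+ANTA-NC in the middle and Veh right for each gene. The genes run in the order of their Veh means, with Igfbp4 at 46.7 FPKM and Irs1 at 0.451 FPKM, and Tsc22d3 lies above Igfbp4 in the OCY-EV+ANTA libraries only.

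The first comparison, OCY-EV+ANTA against OCY-EV+ANTA-NC, asked what differed between vesicles mixed with the miR-483-5p antagomir and with the control antagomir. Whether miR-483-5p was blocked, in the vesicles or in the cells, was not tested. Of the 10 genes, 3 were higher (Tsc22d3, Igfbp3, Foxo3), 1 was lower (Igfbp4) and 6 did not pass the test. A gene is called here when its p from edgeR's quasi-likelihood test, adjusted by Benjamini and Hochberg over all 11562 genes, was under 0.05. In this comparison 14.7% of all tested genes were called, 7.59% as higher and 7.09% as lower. The share of 4 of 10 was larger, with no test of that difference. The 10 genes were chosen with earlier results of these data known, so that larger share is a description only. Libraries of the groups did not overlap for 6 of the 10 genes, and for 29.9% of all genes. The median log2 fold change of the 10 genes was 0.01, against 0.00 for all genes. Changes of the 4 called genes were small: Igfbp4 fell by 11.5%, and the fitted rises ran from 12.1% for Foxo3 to 21.2% for Igfbp3. These values are from the main fit, which does not pair libraries. With the library number as a replicate block, 5 of the 10 genes and 2427 of all 11562 were called, Irs1 being added as lower.

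**Figure D2:**
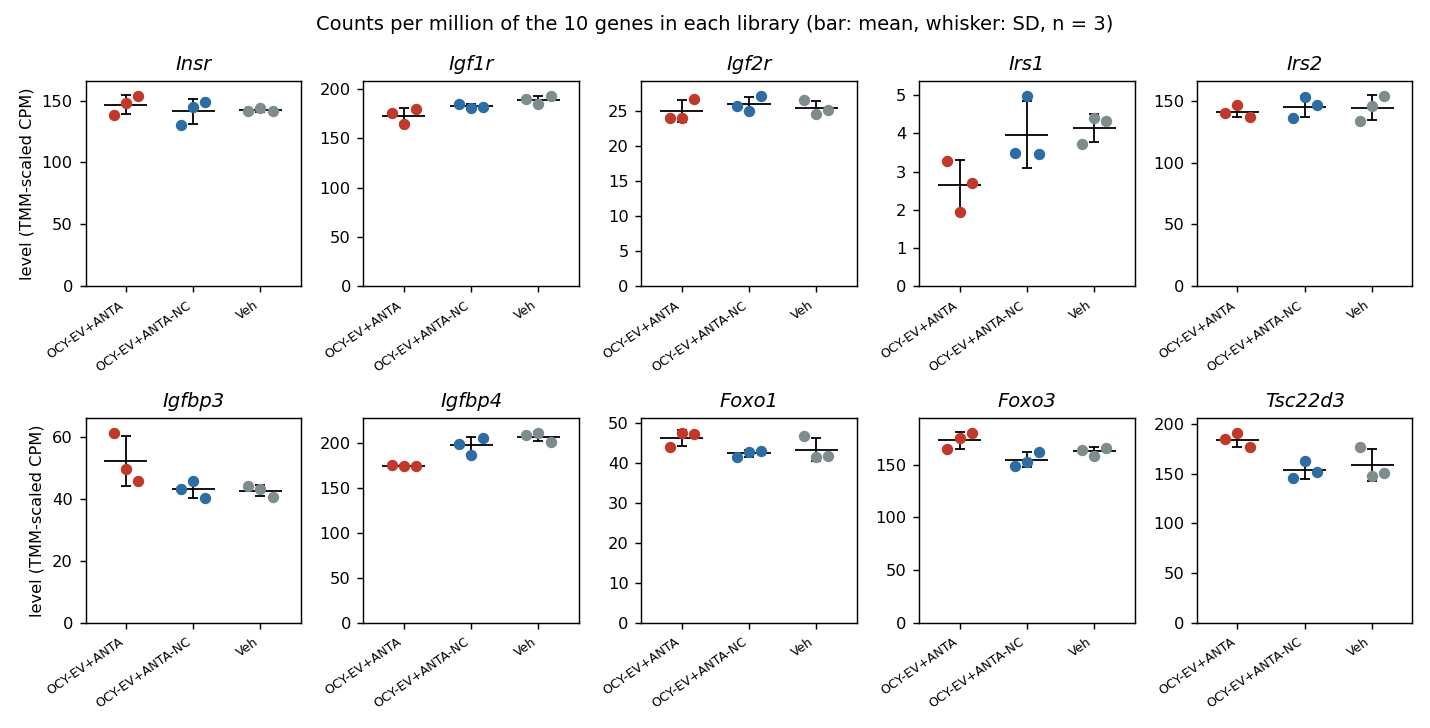
Level (TMM-scaled CPM, axis from 0) of each of the 10 genes, 1 point per library, with OCY-EV+ANTA, OCY-EV+ANTA-NC and Veh from left to right; bars are means and whiskers SD (n = 3). Tsc22d3 and Foxo3 lie higher and Igfbp4 lies lower in OCY-EV+ANTA than in every OCY-EV+ANTA-NC library, and Igfbp3 library 1 of OCY-EV+ANTA stands out at 61.2 CPM.

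Among the receptors none was called. Insr, the insulin receptor, had 139, 148 and 154 CPM in OCY-EV+ANTA, against 130, 145 and 149 CPM in OCY-EV+ANTA-NC and 141, 144 and 141 CPM in Veh. These ranges overlapped, and the log2 fold change of Insr between OCY-EV+ANTA and OCY-EV+ANTA-NC was 0.05 (95% interval -0.05 to 0.16, adjusted p = 0.509). Igf2r, which takes up IGF2 for degradation and carries lysosomal enzymes, had 24.1, 24.1 and 26.8 CPM in OCY-EV+ANTA, against 25.8, 25.1 and 27.2 CPM in OCY-EV+ANTA-NC and 26.6, 24.7 and 25.1 CPM in Veh. Its groups overlapped too, at a fold change on the log2 scale of -0.06 (95% interval -0.19 to 0.08) between OCY-EV+ANTA and OCY-EV+ANTA-NC.

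Igf1r, the receptor for IGF1 and IGF2, had 176, 164 and 179 CPM in OCY-EV+ANTA, against 185, 181 and 182 CPM in OCY-EV+ANTA-NC and 190, 184 and 193 CPM in Veh. Every OCY-EV+ANTA library lay below every library of both other groups. For Igf1r the log2 fold change was -0.08 (SE 0.04, adjusted p = 0.204) against OCY-EV+ANTA-NC and -0.13 (SE 0.04, adjusted p = 0.0578) against Veh, and neither passed the test. Against OCY-EV+ANTA-NC, Igf1r passed in 1 of 19 other settings, a replicate block with the GC and length trend removed (-0.10, adjusted p = 0.0232), and not with the block alone (adjusted p = 0.0880). Against Veh it passed in 6 of the 10 settings that do not leave out single libraries, at log2 fold changes of -0.12 to -0.14. These were DESeq2's Wald test (adjusted p = 0.0447), no filter on low counts (0.0427), library size alone as the scale (0.0467), removal of the GC and length trend (0.0225), and the replicate block without and with that removal (0.00609 and 0.00214). It passed in 0 of the 9 fits that leave out a library (adjusted p of 0.0528 to 0.249) and in neither limma fit on log2 FPKM (0.128 and 0.130).

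Of the adaptors, which link the receptors to PI3-kinase, neither was called in the main fit, while a replicate block called Irs1 as lower, as given below. Irs2, an adaptor whose liver level rises in fasting, had 140, 146 and 138 CPM in OCY-EV+ANTA, against 136, 153 and 147 CPM in OCY-EV+ANTA-NC and 134, 146 and 154 CPM in Veh. Its groups overlapped, at a fold change on the log2 scale of -0.04 (95% interval -0.15 to 0.07) between OCY-EV+ANTA and OCY-EV+ANTA-NC. Irs1 was the least abundant of the 10 genes and rests on few reads: 57, 33 and 50 counts in OCY-EV+ANTA, 64, 93 and 68 counts in OCY-EV+ANTA-NC, and 66, 95 and 75 counts in Veh.

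Scaled, Irs1 had 3.28, 1.93 and 2.70 CPM in OCY-EV+ANTA, against 3.47, 4.97 and 3.46 CPM in OCY-EV+ANTA-NC and 3.71, 4.39 and 4.32 CPM in Veh. All 3 OCY-EV+ANTA libraries were the lowest. The log2 fold change of Irs1 was -0.58 (SE 0.21, adjusted p = 0.0678) against OCY-EV+ANTA-NC and -0.65 (SE 0.21, adjusted p = 0.0670) against Veh, both above the threshold. Leaving out 1 library at a time, each passed in 1 of 9 fits, that without OCY-EV+ANTA library 1 (log2 fold changes of -0.77 and -0.83, adjusted p = 0.0310 and 0.0314). The weakest of these fits gave -0.39 against OCY-EV+ANTA-NC, without OCY-EV+ANTA-NC library 2 (adjusted p = 0.303), and -0.48 against Veh, without OCY-EV+ANTA library 2 (adjusted p = 0.255). Of the 10 other settings, 3 called Irs1 in each comparison. With the library number as a replicate block the log2 fold change was -0.58 against OCY-EV+ANTA-NC (adjusted p = 0.0318) and -0.64 against Veh (adjusted p = 0.0236), and with the GC and length trend also removed it was -0.60 (adjusted p = 0.0244) and -0.65 (adjusted p = 0.0193). With no filter on low counts the adjusted p were 0.0259 and 0.0169. Of the exon bases of Irs1, 30.9% overlap Gm9747 on the opposite strand, and without a stated strand setting reads of these genes cannot be told apart.

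The binding proteins moved in opposite directions. Igfbp4 (GRCm38, chr11:99041244-99054392, plus strand), which binds IGFs and in cell culture mostly holds back their action, had 175, 174 and 174 CPM in OCY-EV+ANTA, against 199, 187 and 206 CPM in OCY-EV+ANTA-NC and 209, 211 and 201 CPM in Veh. The OCY-EV+ANTA libraries were nearly equal and lay below all 6 others. For Igfbp4 the log2 fold change was -0.18 (SE 0.04, adjusted p = 0.00484) against OCY-EV+ANTA-NC and -0.25 (SE 0.04, adjusted p = 0.000586) against Veh. Igfbp4 was called in both comparisons under all 19 alternative settings, at log2 fold changes of -0.21 to -0.15 and -0.27 to -0.23 when 1 library was left out at a time.

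Igfbp3 (chr11:7206086-7213923, minus strand), the main IGF carrier of serum, had 61.2, 49.4 and 45.7 CPM in OCY-EV+ANTA, against 43.1, 45.7 and 40.2 CPM in OCY-EV+ANTA-NC and 44.0, 43.3 and 40.5 CPM in Veh. Library 1 of OCY-EV+ANTA was far above the rest, and library 3 lay just under the highest OCY-EV+ANTA-NC library. The log2 fold change was 0.28 (SE 0.08, adjusted p = 0.0227, 2 of 3 libraries above all of the other group) against OCY-EV+ANTA-NC and 0.29 (SE 0.08, adjusted p = 0.0328, 3 of 3 libraries above) against Veh. These calls rest on single libraries. Without OCY-EV+ANTA library 1 the log2 fold changes were 0.14 (adjusted p = 0.154) and 0.16 (adjusted p = 0.152). Without OCY-EV+ANTA-NC library 3 the call against that group was lost (0.23, adjusted p = 0.103). Against Veh it was also lost without Veh library 1, 2 or 3 or OCY-EV+ANTA library 2 (adjusted p of 0.0519, 0.0879, 0.137 and 0.0556, log2 fold changes of 0.25 to 0.32). Both limma fits on log2 FPKM missed the threshold too, against OCY-EV+ANTA-NC (0.22 and 0.24, adjusted p = 0.118 and 0.113) and against Veh (0.26 and 0.27, adjusted p = 0.125 and 0.118).

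Set against each other, the FPKM of Igfbp4 was 2.41 ± 0.34 times that of Igfbp3 in OCY-EV+ANTA, against 3.27 ± 0.37 times in OCY-EV+ANTA-NC and 3.44 ± 0.081 times in Veh (SD, n = 3). The OCY-EV+ANTA ratios (2.03 to 2.70) lay below those of OCY-EV+ANTA-NC (2.90 to 3.63) and of Veh (3.36 to 3.52).

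Foxo3 (chr10:42181841-42276755, minus strand), a FOXO factor of stress resistance and cell cycle arrest, had 165, 175 and 180 CPM in OCY-EV+ANTA, against 149, 152 and 162 CPM in OCY-EV+ANTA-NC and 164, 158 and 166 CPM in Veh. It was higher in every OCY-EV+ANTA library than in any OCY-EV+ANTA-NC library, while OCY-EV+ANTA and Veh overlapped. The log2 fold change was 0.16 (SE 0.04, adjusted p = 0.0146) against OCY-EV+ANTA-NC and 0.09 (SE 0.04, adjusted p = 0.240) against Veh. The call was lost without OCY-EV+ANTA-NC library 1 or 2 (log2 fold changes of 0.14 and 0.15, adjusted p = 0.0674 and 0.0579) and without OCY-EV+ANTA library 2 or 3 (0.15 and 0.13, adjusted p = 0.0601 and 0.0890), and in both limma fits (0.13 each, adjusted p = 0.0821 and 0.0805).

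Foxo1, the FOXO factor that drives gluconeogenic genes in liver and the only one of the 10 with the 7-letter seed match, had 44.0, 47.5 and 47.2 CPM in OCY-EV+ANTA, against 41.5, 42.8 and 43.1 CPM in OCY-EV+ANTA-NC and 46.7, 41.6 and 41.7 CPM in Veh. The OCY-EV+ANTA libraries lay above all OCY-EV+ANTA-NC libraries and overlapped with Veh. Its log2 fold changes of 0.12 (SE 0.06, adjusted p = 0.153) against OCY-EV+ANTA-NC and 0.10 (SE 0.06, adjusted p = 0.358) against Veh did not pass the test. Exons of Foxo1 overlap Gm20402 on the opposite strand over 7.8% of their bases.

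Tsc22d3 (chrX:140539528-140600659, minus strand) encodes GILZ, a leucine zipper protein that damps inflammatory transcription. It had 185, 191 and 176 CPM in OCY-EV+ANTA, against 146, 162 and 151 CPM in OCY-EV+ANTA-NC and 177, 148 and 151 CPM in Veh. All OCY-EV+ANTA libraries lay above all OCY-EV+ANTA-NC libraries, and Veh library 1 alone reached into the OCY-EV+ANTA range. The log2 fold change against OCY-EV+ANTA-NC was 0.26 (SE 0.06, adjusted p = 0.00358), and it was called under all 19 alternative settings, at 0.23 to 0.31 with 1 library left out. Against Veh it was 0.22 (SE 0.06, adjusted p = 0.0257, 2 of 3 libraries above all Veh libraries). That call was lost without Veh library 2 or 3 (0.17 and 0.18, adjusted p = 0.161 and 0.134) and without OCY-EV+ANTA library 2 (0.19, adjusted p = 0.116), and in both limma fits (0.20 and 0.21, adjusted p = 0.0966 and 0.0920).

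**Figure D3:**
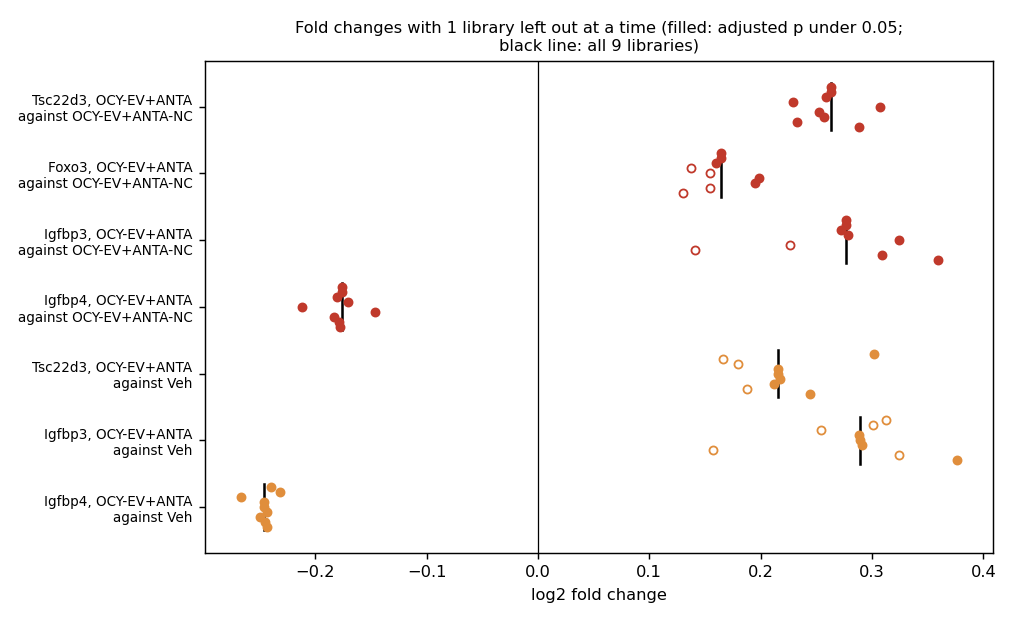
Log2 fold change (x axis) of each called gene and comparison with 1 of the 9 libraries left out at a time, 1 point per fit; filled points had an adjusted p under 0.05 and the black line marks the value with all libraries. Igfbp4 in both comparisons and Tsc22d3 against OCY-EV+ANTA-NC keep every point filled, while Igfbp3 reaches down to 0.14 and Foxo3 to 0.13 against OCY-EV+ANTA-NC.

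The second comparison, OCY-EV+ANTA-NC against Veh, asked what the vesicles with the control antagomir changed. None of the 10 genes was called by edgeR's quasi-likelihood test, none by DESeq2 or by limma on log2 FPKM, and 0 had an unadjusted p under 0.05, whereas 1.02% of all genes were called and 13.5% had such a p. For none of the 10 did the 2 groups' libraries stay apart, against 19.3% of all genes. The largest fitted differences were those of Foxo3 (log2 fold change of -0.07, 95% interval -0.16 to 0.02) and Igfbp4 (-0.07, 95% interval -0.15 to 0.01). For Irs1 the interval, -0.47 to 0.34, leaves room for a sizeable change in either direction at this depth. For the other 9 genes the intervals stayed within -0.17 and 0.18.

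The third comparison set OCY-EV+ANTA against Veh. Of the 10 genes, 3 were called, Igfbp3 and Tsc22d3 as higher and Igfbp4 as lower, with the values given above. Of all genes 6.52% were called, 3.06% as higher and 3.46% as lower. The groups did not overlap for 4 of the 10 genes (Igf1r, Irs1, Igfbp3 and Igfbp4) and for 25.0% of all genes. The median log2 fold change was 0.01 for the 10 genes and 0.00 for all genes.

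**Figure D4:**
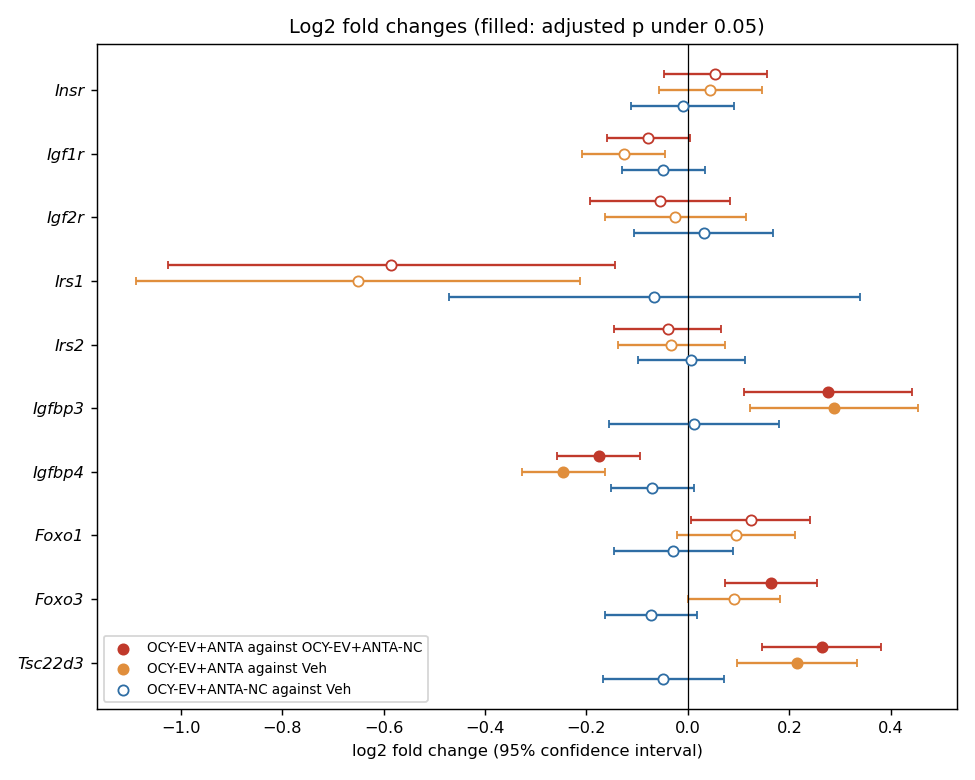
Log2 fold changes of the 10 genes with their 95% confidence intervals in the 3 comparisons, with OCY-EV+ANTA against OCY-EV+ANTA-NC on top for each gene; filled points had an adjusted p under 0.05. Igfbp4 lies at -0.18 and -0.25 in the comparisons with OCY-EV+ANTA and every OCY-EV+ANTA-NC against Veh interval spans 0.

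The groups also differed in how counts tracked the GC content of genes. Across genes, which are not independent replicates, Spearman's correlation between GC content and the deviation of a library from the gene means was 0.08 to 0.11 in OCY-EV+ANTA, -0.27 to -0.11 in OCY-EV+ANTA-NC and -0.01 to 0.23 in Veh. The GC content of the 10 genes ran from 46.8% (Insr) to 56.6% (Irs2). After removal of the GC and length trend, the same 4 genes (Igfbp3, Igfbp4, Foxo3, Tsc22d3) were called against OCY-EV+ANTA-NC, and with a replicate block as well these 4 with Igf1r and Irs1.

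The pathway around these genes was read from lists of 118 genes, 97 of them tested. The 118 include the 10 genes themselves and the list of reported glucocorticoid receptor targets, so they are not all further insulin pathway genes. The 10 genes give 3 of the higher and 1 of the lower calls against OCY-EV+ANTA-NC, and 2 and 1 against Veh. Against OCY-EV+ANTA-NC, 17 were higher and 5 lower in OCY-EV+ANTA, where 7.59% of all genes were called higher and 7.09% lower. Against Veh 10 were higher and 5 lower, where 3.06% of all genes were called higher and 3.46% lower. Between OCY-EV+ANTA-NC and Veh 0 were called in any list, where 1.02% of all genes were called. The list counts below are to be read against these shares, and the lists were made with earlier results of these data known. The ligands had almost no counts: Ins1, Ins2 and Igf2 had 0 counts in all 9 libraries and Igf1 had at most 3. The gluconeogenic genes G6pc and Pck1 and the binding protein Igfbp1, all classic FOXO1 targets of liver, also had 0 counts in every library. For Igf2, 62.8% of the exon bases are also exon of Gm49394, on the same strand, and reads given to neither would be missing. Of genes called below, opposite-strand genes overlap 19.4% of the exon bases of Txnip, 19.1% of Gadd45a and 7.7% of Cdkn1a. The shares are 7.0% for Igfbp7, 3.4% for Deptor and 1.8% for Rps6kb1. Without a stated strand setting, reads of such overlaps cannot be told apart.

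Of 5 tested genes listed with the binding proteins and their proteases, 2 were higher (Igfbp3 and Htra1) and 2 lower (Igfbp4 and Igfbp7) against OCY-EV+ANTA-NC. The remaining gene, a stanniocalcin, is neither a binding protein nor a protease and was not called. Igfbp7, a secreted relative that binds IGFs weakly, averaged 236 ± 6.7 CPM in OCY-EV+ANTA, against 285 ± 3.6 in OCY-EV+ANTA-NC and 309 ± 4.3 in Veh (SD, n = 3). Its log2 fold change was -0.27 (SE 0.03, adjusted p = 1.51e-05) against OCY-EV+ANTA-NC and -0.39 (SE 0.03, adjusted p = 4.04e-07) against Veh, called with each library left out. Htra1, a serine protease, averaged 57.8 ± 0.73 CPM in OCY-EV+ANTA, against 51.4 ± 0.20 in OCY-EV+ANTA-NC and 54.1 ± 0.99 in Veh (SD, n = 3). Its log2 fold change against OCY-EV+ANTA-NC was 0.17 (adjusted p = 0.0169). That call was lost without OCY-EV+ANTA-NC library 1 (0.16, adjusted p = 0.0514) or OCY-EV+ANTA library 3 (0.15, adjusted p = 0.0652), and with the GC and length trend removed (0.14, adjusted p = 0.0526), though not when the replicate block was kept with that removal (0.14, adjusted p = 0.0420).

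In the main fit, which does not pair libraries, nothing between the receptor and AKT passed the test in any comparison. Called were 0 of 3 receptors, 0 of 8 adaptors and 0 of 10 genes of PI3-kinase, PDK1 and AKT. Calls under other settings included Irs1 and Igf1r, as given above, and Pik3r2, a regulatory subunit of PI3-kinase, against Veh with a replicate block and the GC and length trend removed (-0.11, adjusted p = 0.0403). The smallest adjusted p in the last list was that of Pik3r1, another such subunit, at a fold change on the log2 scale of -0.13 (SE 0.06, adjusted p = 0.142) between OCY-EV+ANTA and OCY-EV+ANTA-NC. Of 15 inhibitors of insulin signalling, Trib3, a pseudokinase reported to bind AKT and also a gene of the integrated stress response, was higher in OCY-EV+ANTA at 35.7 ± 3.5 CPM, against 26.7 ± 2.3 in OCY-EV+ANTA-NC and 26.6 ± 0.71 in Veh (SD, n = 3). Its log2 fold change was 0.42 in both comparisons (SE 0.07 each, adjusted p = 0.000664 and 0.00117), called with each library left out. Trib3 was the only one of the 15 called against OCY-EV+ANTA-NC, while a replicate block called 2 as higher and 1 as lower.

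Against Veh and not against OCY-EV+ANTA-NC, Ptpn1, a phosphatase that switches off the insulin receptor, was lower in OCY-EV+ANTA (log2 fold change of -0.13, SE 0.04, adjusted p = 0.0352). This call was lost without Veh library 1, 2 or 3 or OCY-EV+ANTA library 2 or 3 (adjusted p of 0.0564 to 0.138, -0.14 to -0.11).

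Of 13 genes of TSC and mTOR, 1 was higher and 2 were lower against OCY-EV+ANTA-NC. Eif4ebp1, a translation repressor that mTOR inactivates and a reported FOXO target, averaged 205 ± 9.4 CPM in OCY-EV+ANTA. It averaged 179 ± 6.4 in OCY-EV+ANTA-NC and 194 ± 2.1 in Veh (SD, n = 3). Its log2 fold change against OCY-EV+ANTA-NC was 0.20 (SE 0.04, adjusted p = 0.00219). Rps6kb1, the S6 kinase, had a log2 fold change of -0.16 (adjusted p = 0.0191) and Deptor, an mTOR inhibitor, one of -0.18 (adjusted p = 0.0241). The Rps6kb1 call was lost without OCY-EV+ANTA-NC library 1 or 2 or OCY-EV+ANTA library 2 (adjusted p of 0.109, 0.0538 and 0.0601, log2 fold changes of -0.13 and -0.16), and with the GC and length trend removed, without the replicate block (-0.10, adjusted p = 0.155) or with it (-0.10, adjusted p = 0.119). That Deptor call was lost without OCY-EV+ANTA-NC library 2 or OCY-EV+ANTA library 1 or 3 (adjusted p of 0.119, 0.0954 and 0.0529, log2 fold changes of -0.15, -0.14 and -0.19), and with limma on log2(FPKM + 1) (-0.19, adjusted p = 0.0522). Against Veh only Deptor was called of the 13, as lower (-0.18, adjusted p = 0.0467), and not without Veh library 1 or 3, OCY-EV+ANTA-NC library 2 or 3 or OCY-EV+ANTA library 1 or 3 (adjusted p of 0.0538 to 0.200, log2 fold changes of -0.19 to -0.13) or in either limma fit (-0.17 and -0.19, adjusted p = 0.124 and 0.118).

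Of the 4 FOXO factors only Foxo3 was called, and that against OCY-EV+ANTA-NC. Of 24 tested genes reported as FOXO targets, 8 were higher and 0 lower against OCY-EV+ANTA-NC, where 7.59% of all genes were called higher, with a median log2 fold change of 0.05 over all 24 and 0.00 over all genes. Ccng2, a cyclin of quiescent cells, averaged 263 ± 4.2 CPM in OCY-EV+ANTA, against 232 ± 4.8 in OCY-EV+ANTA-NC and 235 ± 1.7 in Veh (SD, n = 3). Its log2 fold change against OCY-EV+ANTA-NC was 0.18 (SE 0.03, adjusted p = 0.00102). Cdkn1a, the cell cycle inhibitor p21 and also a p53 target, averaged 228 ± 12 CPM in OCY-EV+ANTA. It averaged 195 ± 9.4 in OCY-EV+ANTA-NC and 207 ± 8.1 in Veh (SD, n = 3). Its log2 fold change against OCY-EV+ANTA-NC was 0.22 (SE 0.04, adjusted p = 0.00194). With Eif4ebp1 and Tsc22d3, these had the smallest adjusted p of the list, and all 4 were called with each library left out. The list holds Insr, Irs2 and Tsc22d3 and was made with results of these data known, so its direction is a description.

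The other 4 called against OCY-EV+ANTA-NC were Cdkn1b, the cell cycle inhibitor p27 (log2 fold change of 0.14, adjusted p = 0.0107), Gadd45a, a gene of growth arrest and DNA damage (0.26, adjusted p = 0.0109), Cat, the catalase (0.14, adjusted p = 0.0395), and Txnip, an inhibitor of thioredoxin (0.76, adjusted p = 0.0406). Each of these 4 calls was lost without single libraries, and 2 of them also under other settings. Without OCY-EV+ANTA-NC library 1 or OCY-EV+ANTA library 2, Cdkn1b (0.12 in both, adjusted p = 0.0518 and 0.0664) and Gadd45a (0.18 and 0.22, adjusted p = 0.0670 and 0.0650) were lost. Cat and Txnip were lost without Veh library 2 or 3, OCY-EV+ANTA-NC library 1 or 2 or OCY-EV+ANTA library 2 or 3 (adjusted p of 0.0536 to 0.238 for Cat at 0.09 to 0.15, and of 0.0522 to 0.236 for Txnip at 0.48 to 0.80). Cat was also lost with library size alone (0.11, adjusted p = 0.103), in both limma fits (0.11 each, adjusted p = 0.132 and 0.130) and with only the 6 libraries compared (0.14, adjusted p = 0.0656). Txnip was also lost with DESeq2's Wald test (0.77, adjusted p = 0.250), in both limma fits (0.61 and 0.72, adjusted p = 0.189 and 0.187) and with only the 6 libraries compared (0.76, adjusted p = 0.0592). Against Veh 4 of the 24 were higher (Ccng2, Gadd45a, Cdkn1b and Tsc22d3) and 0 lower. There Ccng2 was called with each library left out (0.16, SE 0.03, adjusted p = 0.00562). Gadd45a (0.29, adjusted p = 0.0107) was lost without OCY-EV+ANTA library 2 (0.26, adjusted p = 0.0623), and Cdkn1b (0.15, adjusted p = 0.0158) without Veh library 1 or 2 or OCY-EV+ANTA library 2 or 3 (0.13 to 0.15, adjusted p of 0.0532 to 0.0791).

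Of 7 tested genes listed around insulin, SREBP-1c and glucose, 3 were higher and 0 lower against OCY-EV+ANTA-NC. Insig1, which holds back SREBP processing, averaged 160 ± 2.9 CPM in OCY-EV+ANTA, against 130 ± 2.1 in OCY-EV+ANTA-NC and 129 ± 5.2 in Veh (SD, n = 3), log2 fold changes of 0.29 against OCY-EV+ANTA-NC (adjusted p = 5.85e-05) and 0.31 against Veh (adjusted p = 7.66e-05). Lpin1, a phosphatidate phosphatase, was higher by 0.36 on the log2 scale (SE 0.05, adjusted p = 0.000146) against OCY-EV+ANTA-NC. Acacb, an acetyl-CoA carboxylase, averaged 4.68 ± 0.78 CPM in OCY-EV+ANTA, against 2.63 ± 0.21 in OCY-EV+ANTA-NC and 3.28 ± 0.45 in Veh (SD, n = 3). Its log2 fold change against OCY-EV+ANTA-NC was 0.84 (SE 0.19, adjusted p = 0.00445). These 3 were called against OCY-EV+ANTA-NC with each library left out. The other 4 were not called: Nr1h3 (-0.47, adjusted p = 0.0572), Insig2 (-0.03, 0.685), Srebf1 (0.05, 0.501) and Fasn (0.05, 0.513). Nr1h3 passed in 7 of the 10 settings that do not leave out single libraries (-0.50 to -0.32 over the 10). It passed in 0 of the 9 fits that do. Against Veh 2 were higher, Insig1 and Lpin1 (0.23, adjusted p = 0.0107), and the Lpin1 call was lost without Veh library 1 or OCY-EV+ANTA library 2 or 3 (0.20 each, adjusted p of 0.0508 to 0.0705) and in both limma fits (0.20 and 0.22, adjusted p = 0.0768 and 0.0726).

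Since Tsc22d3 is also a reported target of the glucocorticoid receptor, a list of 15 genes around that receptor was read, 13 of them tested. The list holds Tsc22d3 and the gene of the receptor itself beside reported targets. Against OCY-EV+ANTA-NC, 3 were higher (Per1, Ddit4 and Tsc22d3) and 1 was lower (Lcn2), and against Veh 2 were higher (Per1 and Tsc22d3) and 1 was lower (Fkbp5). With a replicate block, 5 of the 13 were higher and 3 lower against OCY-EV+ANTA-NC. Per1, a clock gene, averaged 201 ± 5.7 CPM in OCY-EV+ANTA, against 156 ± 6.9 in OCY-EV+ANTA-NC and 167 ± 6.6 in Veh (SD, n = 3), log2 fold changes of 0.36 against OCY-EV+ANTA-NC (adjusted p = 8.99e-06) and 0.27 against Veh (adjusted p = 0.000421). Ddit4, an mTOR inhibitor also induced by stress, was higher by 0.21 on the log2 scale (SE 0.05, adjusted p = 0.00334) against OCY-EV+ANTA-NC. It averaged 453 ± 21 CPM in OCY-EV+ANTA, against 391 ± 31 in OCY-EV+ANTA-NC and 437 ± 11 in Veh (SD, n = 3). Lcn2, an acute phase protein, averaged 16.5 ± 1.9 CPM in OCY-EV+ANTA, against 21.7 ± 1.8 in OCY-EV+ANTA-NC and 17.8 ± 1.4 in Veh (SD, n = 3). Its log2 fold change against OCY-EV+ANTA-NC was -0.39 (SE 0.09, adjusted p = 0.00618). Fkbp5, a co-chaperone of the receptor, averaged 662 ± 18 CPM in OCY-EV+ANTA, against 697 ± 22 in OCY-EV+ANTA-NC and 748 ± 14 in Veh (SD, n = 3). Its log2 fold change against Veh was -0.18 (SE 0.03, adjusted p = 0.00117). These calls, other than that of Tsc22d3 against Veh given above, held with each library left out. The Ddit4 call was lost with limma on log2(FPKM + 1) (0.18, adjusted p = 0.0531).

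**Figure D5:**
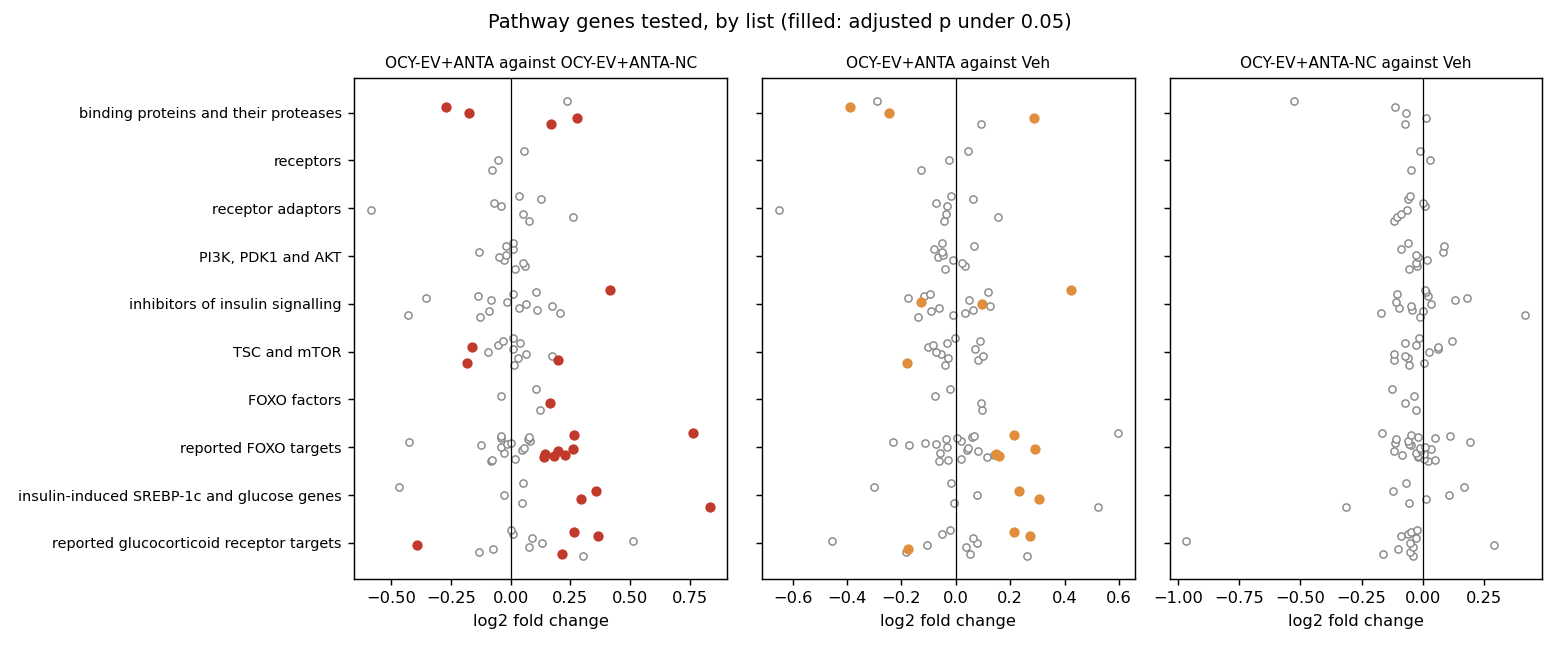
Log2 fold changes of the tested genes of 10 pathway lists (bands of points) in the 3 comparisons, 1 point per gene, filled where the adjusted p was under 0.05; each panel has its own x scale. Filled points lie on both sides of 0 for binding proteins, to the right only for reported FOXO targets (8 of 24 against OCY-EV+ANTA-NC, 4 of 24 against Veh), and there are 0 in OCY-EV+ANTA-NC against Veh.

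The genes whose course over the 9 libraries was most like that of the 3 members with the smallest adjusted p were sought by the root mean square difference of centred log2 CPM. For Tsc22d3, whose own root mean square deviation was 0.14, they were Arhgef3 (0.05), Hrct1 (0.06) and Faf1 (0.06), out of 3481 candidates. For Igfbp4, with a deviation of 0.11, they were Slc22a5 (0.02), Smpd3 (0.03) and Akap1 (0.04), out of 4812. For Foxo3, with a deviation of 0.08, they were Msh6 (0.01), Fbxw8 (0.02) and Rassf8 (0.02), out of 5460. These are likenesses over 9 libraries that share their groups, and they describe the libraries only.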

How the data were processed

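The authors deposited, for each of the 9 libraries, a table of counts per gene and a table of FPKM. The submitters' processing notes name HTSeq, a read counter, and the build mm10. No source used here gives the aligner, annotation, tool versions or strand setting. The deposited FPKM of all 16770 genes with a count equalled the count scaled by the library total and by 1 length per gene, within 0.001 base, so FPKM were used to compare genes and not as the main test. Of the 21959 gene identifiers, 21851 were matched to symbols.

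Counts were filtered with edgeR's filterByExpr (smallest count 10, smallest total 15), which left 99.956% or more of every library's counts, scaled with TMM and fitted in 1 quasi-likelihood model of all 9 libraries with a term per group (edgeR 4.0.16, R 4.3.3). A gene was called where its p, adjusted after Benjamini and Hochberg over the 11562 genes, was under 0.05. SE are on the log2 scale. Alternatives, 19 in all, were DESeq2 1.42.0 (its size factors and its Wald test), library size alone, no filter, limma 3.58.1 on log2(FPKM + 1) or log2(FPKM + 0.1), only the 6 libraries compared, a replicate block, removal of the GC and length trend (splines of 5 degrees of freedom), both together, and leaving out each library. The scripts were tested on simulated data. The labels number the libraries of each group without a stated source for the number. Deviations from the group means of same-numbered OCY-EV+ANTA and OCY-EV+ANTA-NC libraries correlated at 0.11 to 0.30, all 3 over 0.1. These numbers were therefore taken as pairing in that comparison. The main values are nonetheless from the fit without pairing, and the result with the replicate block is given where it changes a call. For Nr1h3 only the count of settings is given.

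Named are the 10 genes and, per pathway list and comparison, up to 4 called genes by smallest adjusted p. Where none was called, the 1 gene with the smallest adjusted p was to be given as a value. In the comparisons with Veh that value is not given for every list. Cdkn1b, Gadd45a, Cat, Txnip, Nr1h3, Insig2, Srebf1 and Fasn against OCY-EV+ANTA-NC fall outside this rule and were named after their values were seen. For likeness, candidates had at least 5 CPM and a deviation within 1.5 times that of the gene, on log2(CPM + 0.5). The genes, lists and tests were chosen with earlier results of these data known. A result of 1 further gene of the pathway lists is not reported here, though the gene is in the counts of its list.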

Additional observations from a re-analysis of the deposited data

How the results depend on the processing

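Leaving out 1 library at a time gave 1005 to 1635 called genes between OCY-EV+ANTA and OCY-EV+ANTA-NC (1698 with all libraries, 3 or 4 of the 10 genes), 43 to 184 between OCY-EV+ANTA-NC and Veh (118, 0 of the 10) and 322 to 872 between OCY-EV+ANTA and Veh (754, 1 to 3 of the 10). With limma on log2(FPKM + 1) and log2(FPKM + 0.1), 2 and 2 of the 10 were called against OCY-EV+ANTA-NC (Igfbp4 and Tsc22d3), 1 and 1 in OCY-EV+ANTA against Veh (Igfbp4), and 48 and 49 genes in OCY-EV+ANTA-NC against Veh. There Foxo3 had adjusted p of 0.0821 and 0.0805 and Igfbp3 of 0.118 and 0.113 against OCY-EV+ANTA-NC. The cause was not tested. With no filter on low counts, 335 genes were called in OCY-EV+ANTA-NC against Veh and 5 of the 10 in OCY-EV+ANTA against Veh (Igf1r and Irs1 added). With only the 6 libraries compared, 180 genes were called in OCY-EV+ANTA-NC against Veh, and after removal of the GC and length trend, 54. With library size alone, calls split into 530 higher and 1155 lower against OCY-EV+ANTA-NC (878 and 820 with TMM), 157 and 6 in OCY-EV+ANTA-NC against Veh (94 and 24), and 312 and 469 in OCY-EV+ANTA against Veh (354 and 400).

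With Veh the library numbers were not taken as pairing, since 2 of 3 same-numbered pairs correlated over 0.1 in each comparison with it (lowest 0.05). Over all groups, the 9 same-numbered pairs correlated at 0.05 to 0.30 and the other pairs at -0.20 to 0.09985. For 8 of the 9 libraries, the closest library in each other group had the same number. The limit of 0.1 thus does not settle whether libraries pair with Veh, and counts with and without the block are given. A replicate block called 2427 genes against OCY-EV+ANTA-NC and 5 of the 10, 522 genes and 0 in OCY-EV+ANTA-NC against Veh, and 1446 genes and 5 in OCY-EV+ANTA against Veh. With the GC and length trend also removed these were 2235 and 6, 326 and 0, and 1465 and 5. Irs1 was added against OCY-EV+ANTA-NC, Igf1r and Irs1 in OCY-EV+ANTA against Veh, and Igf1r also against OCY-EV+ANTA-NC with the trend removed. Among the other genes named, the block also called Igfbp7, Ptpn1, Eif4ebp1, Ddit4 and Fkbp5 as lower and Lcn2 as higher in OCY-EV+ANTA-NC against Veh, Acacb, Cat, Cdkn1a and Txnip as higher in OCY-EV+ANTA against Veh (7 FOXO targets higher and 1 lower there), and Fkbp5 as lower against OCY-EV+ANTA-NC. For the genes named, other than Nr1h3, Insig2, Srebf1 and Fasn, it changed no other call.

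Uncalled values near 0 changed sign. The log2 fold change of Insr in OCY-EV+ANTA-NC against Veh (-0.01) was 0.0117 with library size alone and 0.0087 and 0.0092 with both limma settings. With 1 library left out, values in OCY-EV+ANTA-NC against Veh ran from -0.0452 to 0.0453 for Insr, -0.259 to 0.0312 for Irs1, -0.0437 to 0.057 for Irs2, -0.0348 to 0.0646 for Igfbp3, -0.0593 to 0.0272 for Foxo1 and -0.097 to 0.0379 for Tsc22d3. In OCY-EV+ANTA against Veh they ran from -0.0800 to 0.00771 for Igf2r and -0.0834 to 0.0126 for Irs2. Insr in OCY-EV+ANTA against OCY-EV+ANTA-NC ran from -0.00149 to 0.0913.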
